A study of Mus musculus with 9 samples.

Results

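The genes described here are 48 interferon-stimulated genes and nucleic acid sensors, taken from the 24411 genes of a liver RNA-seq table by their symbols. The list was chosen by symbol with fold changes from these same libraries already known, so the counts of members that rose are a description of the list and support nothing by themselves. All 48 were in the table and all 48 passed the filter on low counts, which kept 11199 genes in total. They were 4 regulators of the response, 5 nucleic acid sensors, 6 members of the OAS family, 13 antiviral effectors, 3 genes of ISG15 conjugation, 3 genes of the PARP9 and DTX3L group, 6 guanylate binding proteins and immunity-related GTPases, 3 secreted proteins and 5 other induced genes.

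Poly(A) RNA was sequenced from 9 livers of mice aged 3 months, with 3 livers in each of 3 groups that all carried floxed Atg7 on both alleles. The cont mice had no Cre recombinase. The Atg7-KO mice carried Cre driven by the albumin promoter, which is active in hepatocytes. Which other liver cells keep an intact Atg7 cannot be read from bulk liver. The third group, Atg7-KO;p62-S351A, called S351A here, had floxed Atg7, the same Cre and a p62 knock-in on both alleles that replaces a serine whose phosphorylation strengthens the binding of p62 to KEAP1. For S351A replicates 2 and 3 the genotype entry of the labels names other positions in p62 than the sample title, and the titles were followed. Mice with the p62 mutation and intact autophagy were not analysed here.

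Type I interferons (the alpha and beta family) and type III interferons bind receptors that activate the kinases JAK1 and TYK2, and these phosphorylate STAT proteins. STAT2 and IRF9 are subunits of the resulting complex ISGF3, which binds the interferon-stimulated response element (ISRE) in the promoters of its target genes. Interferon gamma acts mainly through a different element, the gamma-activated site (GAS). Upstream, the RNA sensors RIG-I and MDA5 signal through MAVS, and the DNA sensor cGAS through STING, to IRF3 and IRF7, which switch on interferon genes.

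Library totals were 1875314 to 15426566 counts in cont, 1945469 to 3675041 in Atg7-KO and 713835 to 792366 in S351A. Each S351A library was smaller than every library of the other groups, so that depth and the p62 mutation cannot be told apart. Levels are given as CPM, the counts relative to a library total scaled by TMM, and 3 counts, taken as the floor, were worth 0.269 to 3.73 CPM depending on the library. Atg7 itself fell from 48.4 ± 8.20 CPM (SD, n = 3) in cont to 28.8 ± 1.16 in Atg7-KO and 23.0 ± 1.64 in S351A, with log2 fold changes of -0.74 and -1.07. By Xist and genes of the Y chromosome, 2 of the cont mice were male, against 1 male in Atg7-KO and 1 in S351A.

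Loss of Atg7 in hepatocytes was accompanied by a large rise of most of these genes. In Atg7-KO against cont, 35 of the 48 members rose, none fell and 13 were not called, where a call needs a fold change above 1.5 and an adjusted p under 0.05 in edgeR's quasi-likelihood test over all genes. Among all genes tested, 19.9% (2226 genes) were called higher and 18.1% (2027) lower. Scaled by total library size instead of TMM, 43 members and 4312 genes were called higher and 796 genes lower. The median log2 fold change of the 48 members was 1.76, beside -0.03 for all genes tested. In 37 members, each Atg7-KO library lay above each cont library, beside 26.7% of all genes, and in Irf1 each lay below. The members took 0.166% to 0.219% of all counts in the cont libraries and 1.04% to 1.13% in the Atg7-KO libraries.

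Most members also rose in the livers that carried the p62 mutation as well. In S351A against cont, 36 members rose, none fell and 12 were not called, where 15.6% of all genes (1748) were called higher and 13% (1460) lower. With total library size, 40 members and 3541 genes were called higher and 510.0 genes lower. The 35 members that rose in Atg7-KO rose here too, and Ifi27 was added. Since both comparisons use the same cont libraries, these counts are not independent of each other. The median log2 fold change was 1.63, beside -0.03 for all genes. In 34 members each S351A library lay above each cont library, beside 19.6% of all genes. When each library was thinned at random to the total of the smallest one, 47 members were tested, of which 23 were called higher in Atg7-KO and 13 in S351A, beside 558 and 358 of 8945 genes tested.

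**Figure D1:**
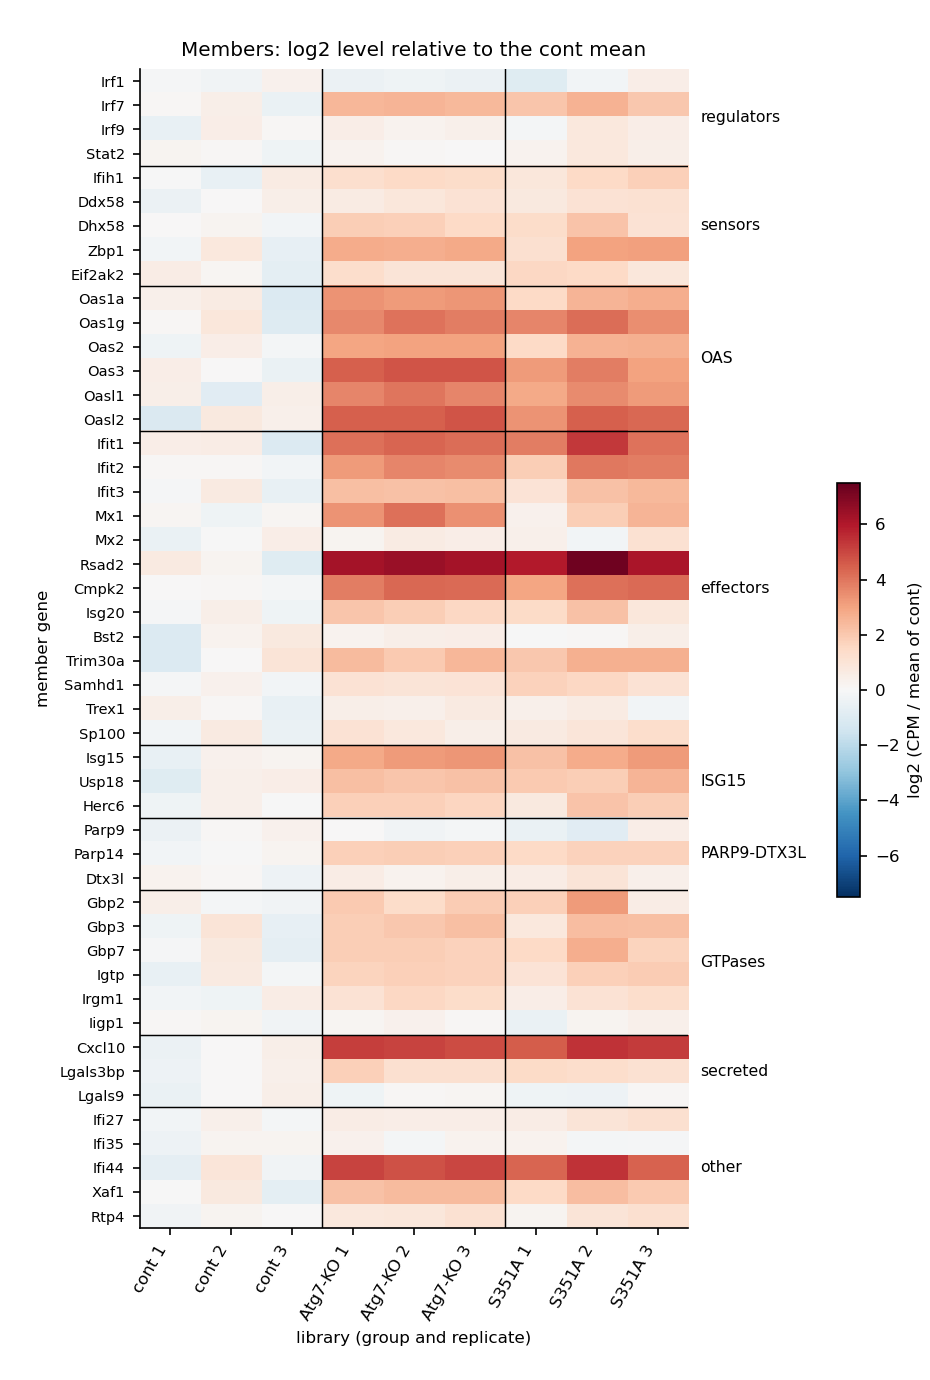
Log2 level of each of the 48 members (rows, grouped by role) in each of the 9 libraries (columns), relative to the mean of the 3 cont libraries, on the TMM scale with 0.5 counts added. Red is above and blue below the cont mean. The Atg7-KO and S351A columns are red for most rows, while Irf1, Irf9, Stat2, Bst2, Parp9, Iigp1, Lgals9 and Ifi35 stay pale throughout.

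Of the regulators, 1 of 4 rose. Irf7, the transcription factor that amplifies interferon production, was the one called member of the 4. Its level was 68.7, 87.0 and 45.5 CPM in cont, 369, 384 and 357 in Atg7-KO and 269, 391 and 264 in S351A, which gave log2 fold changes of 2.47 ± 0.27 (SE) and 2.21 ± 0.27 with adjusted p of 3.8e-05 and 0.00018 by edgeR. Its libraries in both Atg7-deficient groups lay above all cont libraries. Irf9, the DNA-binding subunit of ISGF3, was at 40.7, 83.8 and 63.2 CPM in cont, 84.4, 72.1 and 78.2 in Atg7-KO and 54.0, 102 and 82.7 in S351A. These values overlapped, with log2 fold changes of 0.31 and 0.33. Stat2, the STAT of that complex that is particular to types I and III, was at 371, 345 and 261 CPM in cont, 391, 342 and 329.9 in Atg7-KO and 380.3, 555 and 432 in S351A. The S351A libraries stood above cont, but the log2 difference of 0.49 ± 0.23 had an adjusted p of 0.13 by edgeR. Irf1, a transcription factor that interferon gamma induces strongly, was at 57.2, 50.7 and 74.8 CPM in cont, 44.3, 47.4 and 44.4 in Atg7-KO and 32.2, 50.9 and 83.9 in S351A. Its Atg7-KO libraries were all below cont, with a log2 difference of -0.44 ± 0.27 and an adjusted p of 0.23 by edgeR. With total library size Irf1 was at 0.12 in Atg7-KO and 0.36 in S351A, not called, and Irf9 and Stat2 were called higher in both groups. That scaling moved the median of all genes from -0.03 to 0.52 in Atg7-KO and to 0.47 in S351A, so these changes go with a shift common to all genes.

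All 5 nucleic acid sensors rose in both Atg7-deficient groups, with median log2 fold changes of 1.27 in Atg7-KO and 1.30 in S351A. Zbp1, a sensor of Z-form nucleic acid that can start necroptosis, was at 9.54, 19.7 and 7.26 CPM in cont, 76.1, 75.02 and 81.9 in Atg7-KO and 25.3, 91.9 and 96.3 in S351A. The Atg7-KO libraries were tightly grouped, while S351A replicate 1 was far below the other two. The log2 fold changes of Zbp1 were 2.72 ± 0.45 and 2.59 ± 0.46. Dhx58, which encodes LGP2, a helper of MDA5 without a signalling domain of its own, was at 20.3, 22.9 and 17.6 CPM in cont, 72.2, 69.6 and 58.1 in Atg7-KO and 52.8, 88.2 and 42.0 in S351A. It rose by 1.73 and 1.60 on the log2 scale. Ifih1, which encodes MDA5, a sensor of long double-stranded RNA, was at 26.7, 18.3 and 41.3 CPM in cont, 65.4, 76.8 and 71.8 in Atg7-KO and 48.3, 78.2 and 92.6 in S351A.

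The log2 fold changes of Ifih1 were 1.27 ± 0.29 and 1.30 ± 0.31. Ddx58, which encodes RIG-I, a sensor of RNA with a 5′ triphosphate, was at 20.3, 28.5 and 38.2 CPM in cont, 43.8, 51.0 and 59.5 in Atg7-KO and 46.0, 58.4 and 62.9 in S351A. It had the smallest change of the sensors, 0.78 ± 0.24 with an adjusted p of 0.021 and 0.90 ± 0.25 with an adjusted p of 0.019 by edgeR. The Atg7-KO call of Ddx58 was lost without cont replicate 1 or 2 or without Atg7-KO replicate 2 or 3 (log2 fold changes of 0.58, 0.72, 0.78 and 0.66 respectively), and its S351A call without S351A replicate 2 or 3 (0.84 and 0.78). Eif2ak2, which encodes PKR, the kinase that halts translation on binding double-stranded RNA, was at 83.3, 60.9 and 33.9 CPM in cont, 137, 109 and 108 in Atg7-KO and 163, 156 and 98.7 in S351A. Its log2 fold changes were 1.02 ± 0.31 and 1.26 ± 0.32, and the Atg7-KO call was lost without cont replicate 3 or without Atg7-KO replicate 1 (0.71 and 0.89).

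**Figure D2:**
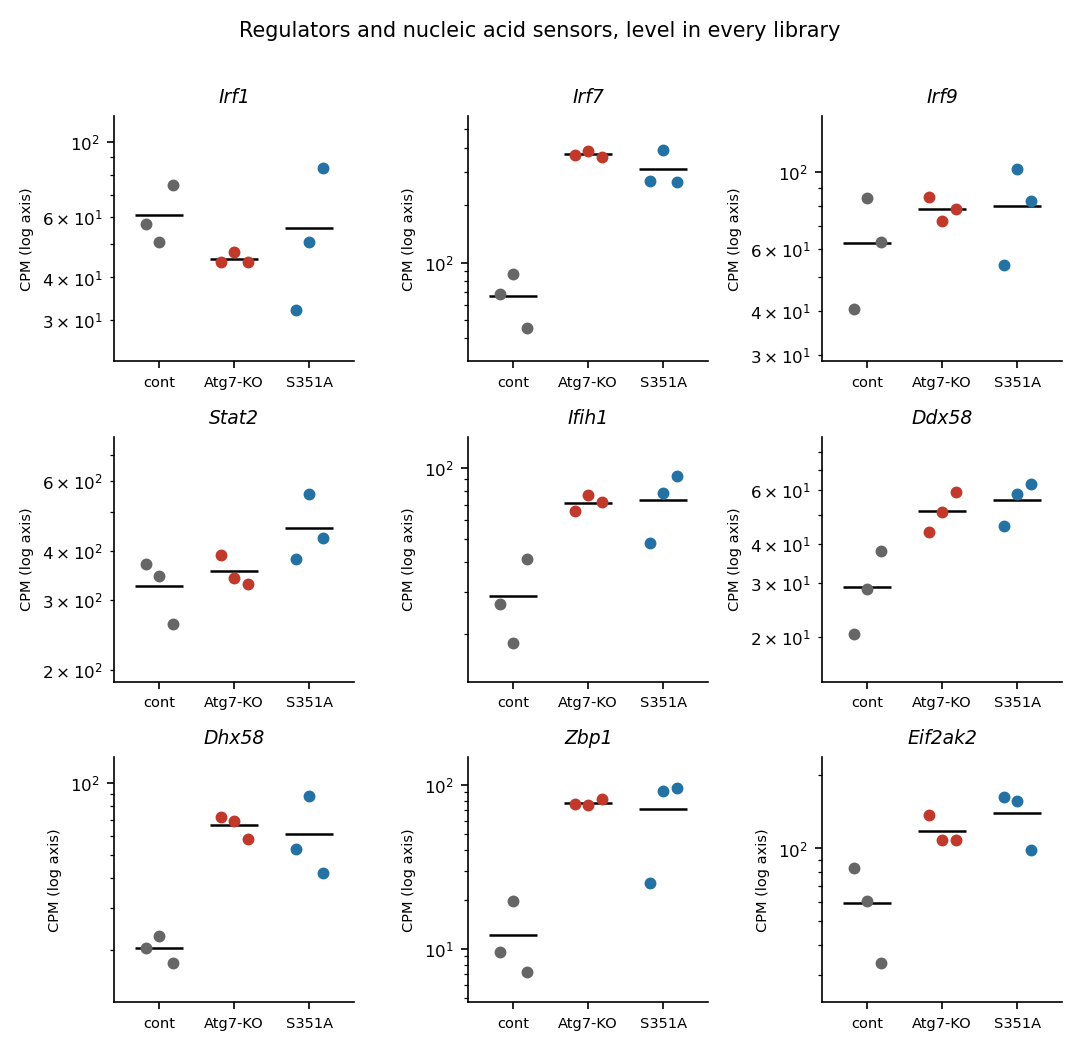
Level in CPM on the TMM scale (log axis) of the 4 regulators and the 5 sensors in every library. Points are libraries and the line is the mean of 3. Irf7 and the sensors sit higher in Atg7-KO and S351A than in cont, while Irf1, Irf9 and Stat2 do not separate Atg7-KO upwards from cont.

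The OAS family rose as a whole. OAS enzymes are activated by double-stranded RNA and make 2′-5′ linked oligoadenylates, which switch on the ribonuclease RNase L, while the OAS-like proteins Oasl1 and Oasl2 act by other routes. All 6 members rose in both groups, and their median on the log2 scale was 3.80 in Atg7-KO and 3.36 in S351A. Oas3 was at 1.91, 1.41 and 1.08 CPM in cont, 34.6, 42.0 and 41.6 in Atg7-KO and 13.8, 22.4 and 12.3 in S351A. The 3 groups did not overlap, with S351A between the other two. Oasl2 was at 1.91, 7.39 and 5.91 CPM in cont, 102, 104 and 119.9 in Atg7-KO and 48.3, 102 and 90.1 in S351A. Oas1g was at 3.18, 5.99 and 1.70 CPM in cont, 40.6, 55.3 and 47.1 in Atg7-KO and 42.5, 60.8 and 37.0 in S351A. For Oas3, Oasl2 and Oas1g the log2 fold changes were 4.91 ± 0.32, 4.29 ± 0.36 and 3.92 ± 0.39 in Atg7-KO and 3.62 ± 0.37, 3.84 ± 0.36 and 3.90 ± 0.41 in S351A. The cont values of Oas3 rest on 3, 4 and 12 counts, and that of Oasl2 in cont replicate 1 on 3 counts, the floor. Oasl1 was at 14.0, 5.63 and 14.2 CPM in cont, 134, 169.8 and 133 in Atg7-KO and 74.7, 120.5 and 96.3 in S351A. Oas2 was at 13.3, 23.6 and 15.1 CPM in cont, 131, 135 and 135 in Atg7-KO and 47.1, 103 and 106 in S351A. Both had their S351A libraries between those of cont and Atg7-KO. Oas1a was at 7.63, 9.16 and 2.87 CPM in cont, 61.2, 54.6 and 60.4 in Atg7-KO and 16.1, 34.8 and 38.3 in S351A. Oas1a and Oas1g are near-identical neighbours, and their estimated counts were not whole numbers in any of the 9 libraries, so reads were split between similar genes and their separate levels are uncertain. In total 12 of the 48 members had a count that was not whole in some library, among them Ifit3 (8 libraries), Igtp (7) and Trim30a (6).

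Of the 13 antiviral effectors, 9 rose in both groups. Rsad2, which encodes viperin, an enzyme that makes a chain-terminating nucleotide against viral polymerases, had the largest change of all members. Its level was 68.7, 50.4 and 23.0 CPM in cont, 3208, 3912 and 3279 in Atg7-KO and 2617, 6709 and 2954 in S351A. The S351A spread came from replicate 2, and no library of either Atg7-deficient group came near cont. The log2 fold changes of Rsad2 were 6.22 ± 0.53 and 6.46 ± 0.53, with adjusted p of 5.8e-06 and 1.1e-05 by edgeR. Cmpk2, a mitochondrial nucleotide kinase that lies next to Rsad2 in the opposite orientation, was at 10.8, 11.3 and 9.77 CPM in cont, 155, 213 and 201 in Atg7-KO and 81.6, 191 and 205 in S351A, with log2 fold changes of 4.17 ± 0.34 and 3.91 ± 0.34. Ifit1, which binds viral RNA that lacks a methylated cap, was at 82.6, 87.0 and 28.8 CPM in cont, 1018, 1242 and 1101 in Atg7-KO and 855, 2357 and 1003 in S351A. It rose by 4.10 ± 0.49 and 4.42 ± 0.50 on the log2 scale. As with Rsad2, S351A replicate 2 stood highest. Rsad2 and Ifit1 together took 46.8% to 50.6% of all counts of the 48 members in the Atg7-KO libraries, 44.6% to 62.8% in S351A and 2.25% to 6.63% in cont.

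The related Ifit2 rose from 5.54 ± 0.551 CPM in cont to 64.5 ± 10.4 in Atg7-KO and 63.1 ± 38.0 in S351A, where replicate 1 was at 19.5 CPM and the others at 89.4 and 80.2. Ifit3 rose from 26.3 ± 11.5 CPM to 116 ± 3.17 and 99.8 ± 44.7. Mx1 encodes a GTPase that blocks influenza virus and is carried as a defective allele by common laboratory strains. It was at 5.09, 3.87 and 5.55 CPM in cont, 51.3, 87.9 and 52.6 in Atg7-KO and 5.74, 17.4 and 28.4 in S351A, and it rose by 3.67 ± 0.39 and 1.76 ± 0.47 on the log2 scale. S351A replicate 1 was close to the cont libraries for this gene, and the S351A call was lost without S351A replicate 2 or 3. Trim30a, a ubiquitin ligase that restrains toll-like receptor signalling, rose from 6.49 ± 4.43 CPM to 27.8 ± 5.04 and 31.6 ± 7.46. Isg20, an RNA exonuclease, rose from 6.46 ± 1.75 CPM to 23.2 ± 4.31 and 19.0 ± 8.86, and its S351A call was lost without S351A replicate 2. Samhd1, which depletes the nucleotides that reverse transcription needs, rose from 19.9 ± 3.89 CPM to 40.3 ± 1.90 and 54.1 ± 12.1.

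The other 4 effectors were not called in either group. Bst2, which encodes tetherin, had a cont level of 121 ± 65.4 CPM, beside 141 ± 12.8 for Atg7-KO and 120.3 ± 19.7 for S351A. Trex1, the cytosolic DNA exonuclease, had log2 differences of 0.51 and 0.30, Mx2 of 0.32 and 0.38, and Sp100, a component of nuclear bodies, of 0.77 and 0.90 with adjusted p of 0.086 and 0.092 by edgeR. Mx2 is annotated as a polymorphic pseudogene in GENCODE M21.

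**Figure D3:**
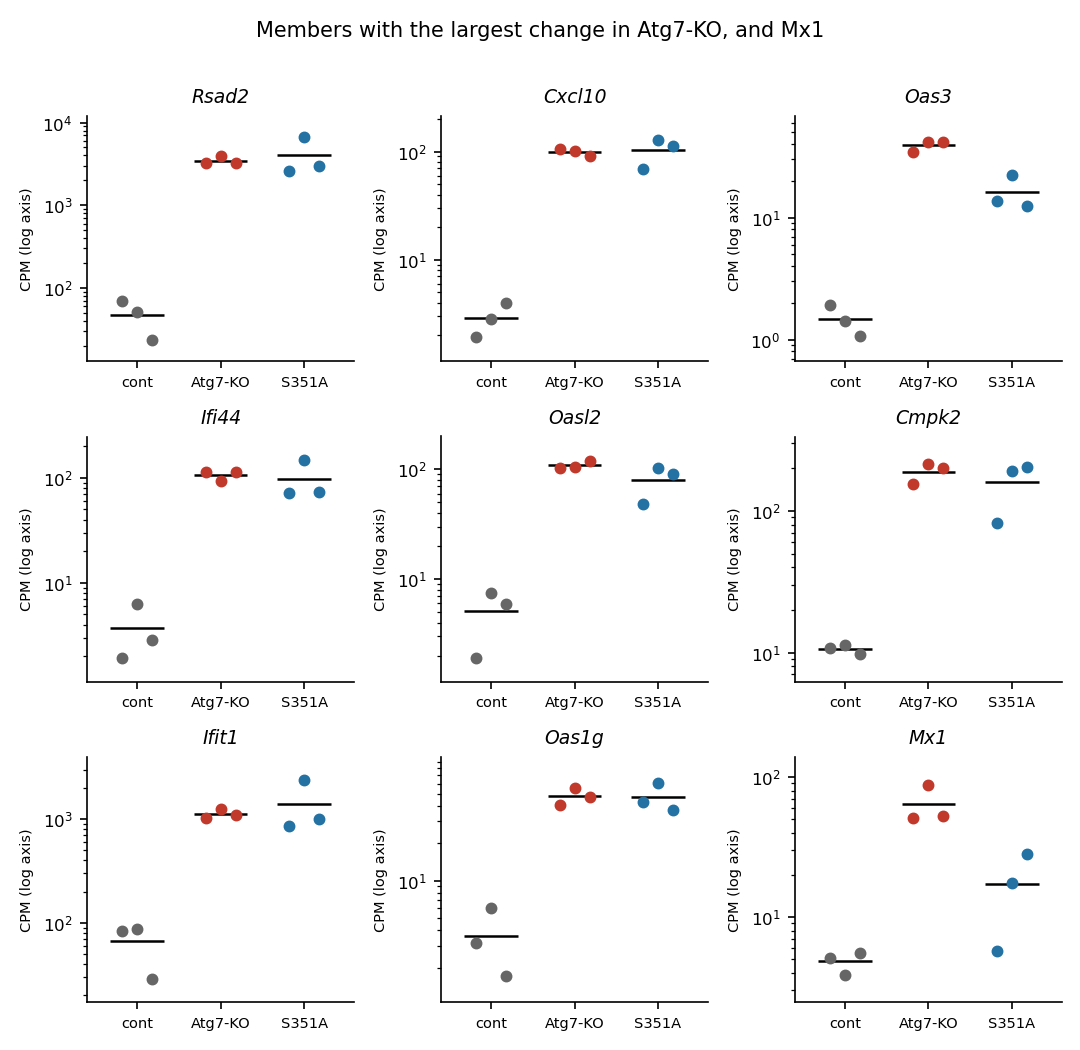
Level in CPM on the TMM scale (log axis) of the 8 members with the largest change in Atg7-KO, and of Mx1, in every library. Points are libraries and the line is the mean of 3. Oas3, Mx1 and, by a narrow margin, Oasl2 have all 3 S351A libraries below all 3 Atg7-KO libraries. Rsad2, Ifit1, Ifi44 and Oas1g have 1 S351A library above all of the Atg7-KO libraries.

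The 3 genes of ISG15 conjugation rose in both groups. Isg15, a ubiquitin-like modifier, was at 8.90, 17.3 and 15.9 CPM in cont, 99.8, 124 and 135 in Atg7-KO and 63.2, 91.9 and 122 in S351A, with log2 fold changes of 3.04 ± 0.29 and 2.67 ± 0.30. Usp18, the protease that removes ISG15 and restrains the type I receptor, rose from 9.66 ± 4.55 CPM to 41.1 ± 2.53 and 39.9 ± 11.4. Herc6, the ligase that attaches ISG15 in mice, rose from 13.1 ± 3.22 CPM to 43.1 ± 2.46 and 41.2 ± 18.6.

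Among the PARP9 and DTX3L group, 1 of 3 rose. Parp14, a mono-ADP-ribosyltransferase, was at 29.2, 33.5 and 38.6 CPM in cont, 117.4, 120.2 and 115 in Atg7-KO and 95.4, 111 and 112 in S351A, a rise of 1.78 ± 0.19 and 1.63 ± 0.19 on the log2 scale and the smallest standard error of the members in both comparisons. Its neighbours were not called. Parp9 was at 37.5 ± 10.2, 33.3 ± 3.67 and 31.9 ± 16.4 CPM in the 3 groups. Dtx3l, the ubiquitin ligase that pairs with PARP9, was at 79.0 ± 16.4, 104 ± 10.6 and 123 ± 26.0 CPM, with a log2 difference in S351A of 0.64 ± 0.23 and an adjusted p of 0.054 by edgeR. With replicate number as a block, Dtx3l was called in S351A, at 0.65 ± 0.22 with an adjusted p of 0.044. Parp9 and Dtx3l overlap on opposite strands.

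Of the GTPases, which act on pathogen-containing vacuoles, 5 of 6 rose in both groups. The guanylate binding protein genes Gbp3 and Gbp7 rose from 25.5 ± 16.1 and 67.6 ± 34.0 CPM in cont to 93.5 ± 13.2 and 219 ± 10.1 in Atg7-KO. In S351A they were at 85.2 ± 40.0 and 263 ± 132 CPM. Gbp2 was called at log2 fold changes of 1.93 ± 0.53 and 2.29 ± 0.60 on few reads, with 2 to 15 counts in each S351A library, and its calls were lost without cont replicate 3 (both comparisons), without Atg7-KO replicate 1 (Atg7-KO) or without S351A replicate 2 (S351A), which also ended the S351A call of Gbp3. Igtp and Irgm1 rose by 1.63 and 1.26 on the log2 scale in Atg7-KO and by 1.52 and 0.90 in S351A. The S351A call of Irgm1 had an adjusted p of 0.035 by edgeR and was lost without any one of cont replicates 1 and 2, Atg7-KO replicates 2 and 3 or S351A replicates 2 and 3. Iigp1 did not follow the group. It was at 561, 592 and 429 CPM in cont, 579.8, 647 and 550.5 in Atg7-KO and 363, 589.8 and 670.1 in S351A, so that the 3 groups overlapped.

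Cxcl10, the chemokine that draws CXCR3-bearing T cells, had, with Oas3, the largest change in Atg7-KO after Rsad2. It was at 1.91, 2.82 and 3.94 CPM in cont, 106, 101 and 90.1 in Atg7-KO and 68.9, 128 and 114 in S351A, with log2 fold changes of 4.91 ± 0.31 and 4.97 ± 0.31 and adjusted p of 1.0e-06 and 2.9e-06 by edgeR. The lowest cont value rests on 3 counts. Lgals3bp, a secreted glycoprotein that binds galectins, rose from 26.7 ± 7.13 CPM to 69.6 ± 16.7 and 63.8 ± 6.69. Lgals9, which encodes galectin-9, was at 281 ± 87.4, 269.8 ± 44.9 and 235 ± 42.4 CPM and was not called.

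Among the other induced genes, Ifi44 was at 1.91, 6.34 and 2.87 CPM in cont, 114, 94.4 and 114 in Atg7-KO and 72.4, 148 and 74.04 in S351A, a rise of 4.86 ± 0.40 and 4.72 ± 0.40 on the log2 scale. Its value in cont replicate 1 rests on 3 counts. Xaf1, which promotes apoptosis by opposing XIAP, rose from 16.8 ± 8.22 CPM to 78.1 ± 4.37 and 60.4 ± 16.1. Rtp4, known from the trafficking of receptors, rose from 22.9 ± 3.53 CPM to 43.5 ± 5.66 and 40.6 ± 13.7. The Rtp4 call was lost in Atg7-KO without Atg7-KO replicate 3, and in S351A without any one of cont replicates 1 and 3, the Atg7-KO replicates or S351A replicates 2 and 3. Ifi27, a small mitochondrial protein gene, was at 58.5, 89.8 and 60.6 CPM in cont, 100.2, 94.8 and 94.7 in Atg7-KO and 101, 132 and 154 in S351A. It was called in S351A alone (log2 fold change 0.89 ± 0.23, adjusted p of 0.013 by edgeR, lost without S351A replicate 2), where the test of S351A against Atg7-KO itself gave 0.42 ± 0.23 with an adjusted p of 0.84. Ifi35 was at 51.5 ± 10.99, 57.4 ± 9.73 and 50.9 ± 7.70 CPM in the 3 groups.

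**Figure D4:**
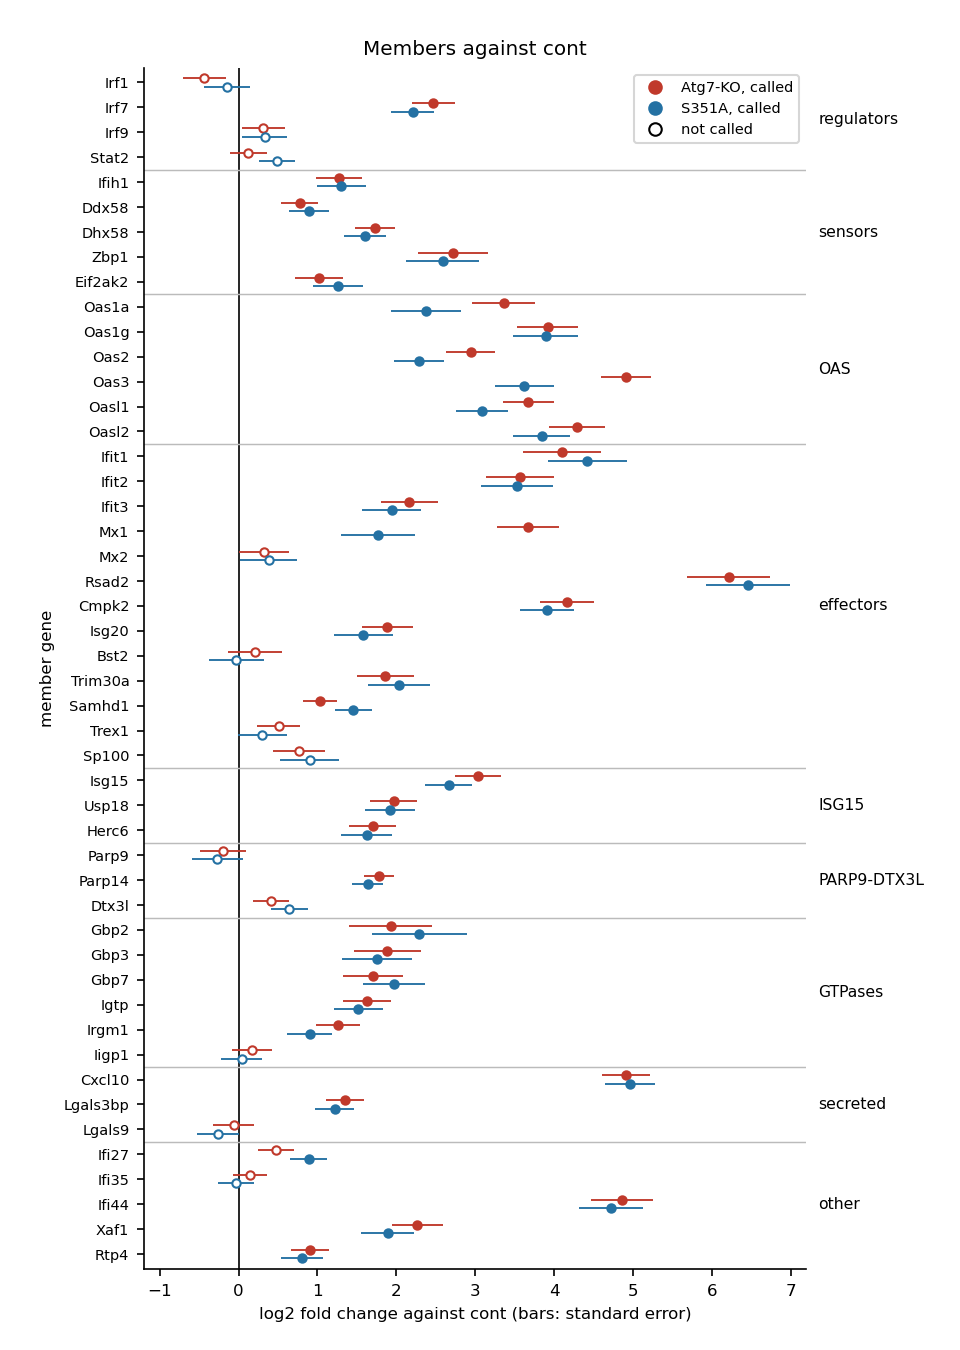
Log2 fold change of each member against cont in Atg7-KO (red) and S351A (blue), with bars for the standard error. Filled points were called. The 2 comparisons share the cont libraries. Red and blue points lie close together for most genes, apart from Mx1, Oas3 and Oas1a, where the blue point is further left.

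The promoters of these genes were read for the ISRE core, because it is the site through which ISGF3 acts. RefSeq promoters (GRCm38.p6, 250 bases before to 50 after a gene's start) matched 37 of the 48 members. The core was searched as GAAANNGAAA on either strand, so also as TTTCNNTTTC. It was in a promoter of 20 of the 37 members (54.1%), in 26 of 56 other interferon-stimulated genes (46.4%) and in 3.99% of the 27025 genes with a promoter. The GAS element, TTCNNNGAA, which reads the same on both strands, was in 10 of the 37 (27.0%). It was in 9 of the 56 other interferon-stimulated genes (16.1%) and in 9.55% of all genes. Members were picked as interferon-stimulated genes, so that a high share is a property of the choice.

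The stretches shown are 120 bases upstream of members that hold the core, chosen after their values were seen: 7 that rose, and Bst2 and Stat2, which were not called. They end just before the start, except those of Cxcl10, Bst2 and Stat2, which end 104, 21 and 113 bases before it so as to hold the core. They are read 5′ to 3′ on the gene's own strand, with each ISRE core in capitals, and a core on the other strand appears as its reverse complement. Isg15 holds 3 overlapping cores and Oas1a and Oas1g hold the same pair.
Rsad2 (chr12:26456453-26456572, minus strand): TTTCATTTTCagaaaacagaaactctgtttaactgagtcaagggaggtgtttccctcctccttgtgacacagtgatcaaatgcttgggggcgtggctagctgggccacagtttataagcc
Cxcl10 (chr5:92348993-92349112, minus strand): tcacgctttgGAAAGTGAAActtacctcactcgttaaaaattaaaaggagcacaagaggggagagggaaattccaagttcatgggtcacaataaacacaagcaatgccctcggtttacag
Ifit1 (chr19:34640769-34640888, plus strand): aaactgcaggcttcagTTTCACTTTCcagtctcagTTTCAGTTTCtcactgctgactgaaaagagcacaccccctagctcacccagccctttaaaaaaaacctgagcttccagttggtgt
Isg15 (chr4:156200819-156200938, minus strand): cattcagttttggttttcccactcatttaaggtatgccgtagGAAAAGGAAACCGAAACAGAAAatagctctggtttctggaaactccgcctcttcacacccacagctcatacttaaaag
Oas3 (chr5:120777660-120777779, minus strand): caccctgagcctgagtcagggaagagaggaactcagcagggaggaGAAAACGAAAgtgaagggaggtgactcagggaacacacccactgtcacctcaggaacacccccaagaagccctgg
Oas1a (chr5:120907526-120907645, minus strand): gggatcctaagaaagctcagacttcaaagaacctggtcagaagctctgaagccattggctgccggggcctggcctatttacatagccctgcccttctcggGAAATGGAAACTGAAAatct
Oas1g (chr5:120887614-120887733, minus strand): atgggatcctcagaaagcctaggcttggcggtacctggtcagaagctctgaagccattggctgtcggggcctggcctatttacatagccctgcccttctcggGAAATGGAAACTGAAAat
Bst2 (chr8:71537493-71537612, minus strand): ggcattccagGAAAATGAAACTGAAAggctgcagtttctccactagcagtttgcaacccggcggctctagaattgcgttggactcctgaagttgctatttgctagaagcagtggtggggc
Stat2 (chr10:128270266-128270385, plus strand): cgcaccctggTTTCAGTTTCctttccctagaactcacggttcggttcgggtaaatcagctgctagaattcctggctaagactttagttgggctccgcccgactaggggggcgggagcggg

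Members rose with and without the core. The 20 members with it had a median log2 fold change of 1.87 in Atg7-KO (range -0.06 to 6.22, 17 called) and the 17 without it had 1.70 (range -0.44 to 4.86, 11 called). In S351A these medians were 1.95 and 1.58. For GAS the order was the other way. The 10 members with it had a median of 1.33 in Atg7-KO (7 called) and the 27 without it 1.93 (21 called), and in S351A 1.49 and 1.94. Bst2, Stat2 and Lgals9 held the core and were not called. Oasl1, Oasl2, Ifit2, Cmpk2 and Ifi44 had no match in this window and rose by at least 3.09 on the log2 scale in both groups. No test was made of these differences.

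Many members lie next to each other. With a gap of at most 1 Mb, 21 of the 48 fell into 8 clusters of GRCm38. The largest was Oas2, Oas3, Oas1g and Oas1a (chr5:120730333-120907521), where all 4 rose. Ifit2, Ifit3 and Ifit1 (chr19:34550694-34650009) and Gbp7, Gbp3 and Gbp2 (chr3:142530342-142638008) also rose together, as did the pair Rsad2 and Cmpk2 (chr12:26442746-26479837). In 3 clusters some members were called and others not, with no test of the difference between neighbours. Parp14 was called and Parp9 and Dtx3l were not (chr16:35832874-35972605), although Dtx3l was called in S351A with the replicate block. Mx1 was called and Mx2 was not (chr16:97447035-97560900), and Dhx58 was called and Ifi35 was not (chr11:100694884-101458698). The overlap of 21 members with another annotated gene matters to these counts because the strand setting of the counting is not given in the sources used here, and reads of overlapping genes, such as Irf7 and Phrf1, Cxcl10 and Art3 or Rtp4 and Masp1, cannot then be told apart.

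Next, the p62 mutation was compared within Atg7-deficient livers. No member was called in S351A against Atg7-KO by edgeR, where 0% of all genes were called higher and 0.00893% lower. An unadjusted p under 0.05 by edgeR was found for 4 of the 48 members, beside 739 of the 11199 genes tested. The share of the members was thus near that of all genes. DESeq2 called 1 member lower, Mx1, beside 17 lower and 23 higher of 11199 genes. Without the filter on low counts edgeR called Mx1 and Oas3 lower, beside 37 lower and 61 higher of 19081 genes, and limma-voom called no member. The median log2 difference of the 48 members was -0.12, beside 0.01 for all genes, with 31 members below 0 and 17 above. Without S351A replicate 1 that median was 0.10. The 95% interval of the difference reached past a fold of 1.5 in 47 of the 48 members, so that a difference of this size was not excluded in them. The intervals of Mx1 and Oas3 lay wholly past it. The interval of Parp14, from -0.55 to 0.26, was the narrowest.

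The members with the smallest p in this comparison were Mx1 and 4 genes of the OAS family, each with all S351A libraries below all Atg7-KO libraries. Mx1 had a log2 difference of -1.91 (95% interval -2.77 to -1.04, adjusted p of 0.31 by edgeR) and Oas3 of -1.28 (-1.87 to -0.70, adjusted p of 0.31). Oas1a followed at -0.99 (-1.80 to -0.18, adjusted p of 0.70) and Oas2 at -0.65 (-1.28 to -0.02, adjusted p of 0.75). For Oasl1 the difference was -0.59, with an interval of -1.22 to 0.05 that holds 0. In 7 of the 48 members all S351A libraries were below all Atg7-KO libraries, beside 9.23% of all genes, and 5 of these belong to the OAS family, whose median difference was -0.62. For Oas1g the difference was -0.02, with an interval of -0.73 to 0.68. For Ifi27 alone the S351A libraries were all above, beside 7.67% of all genes.

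**Figure D5:**
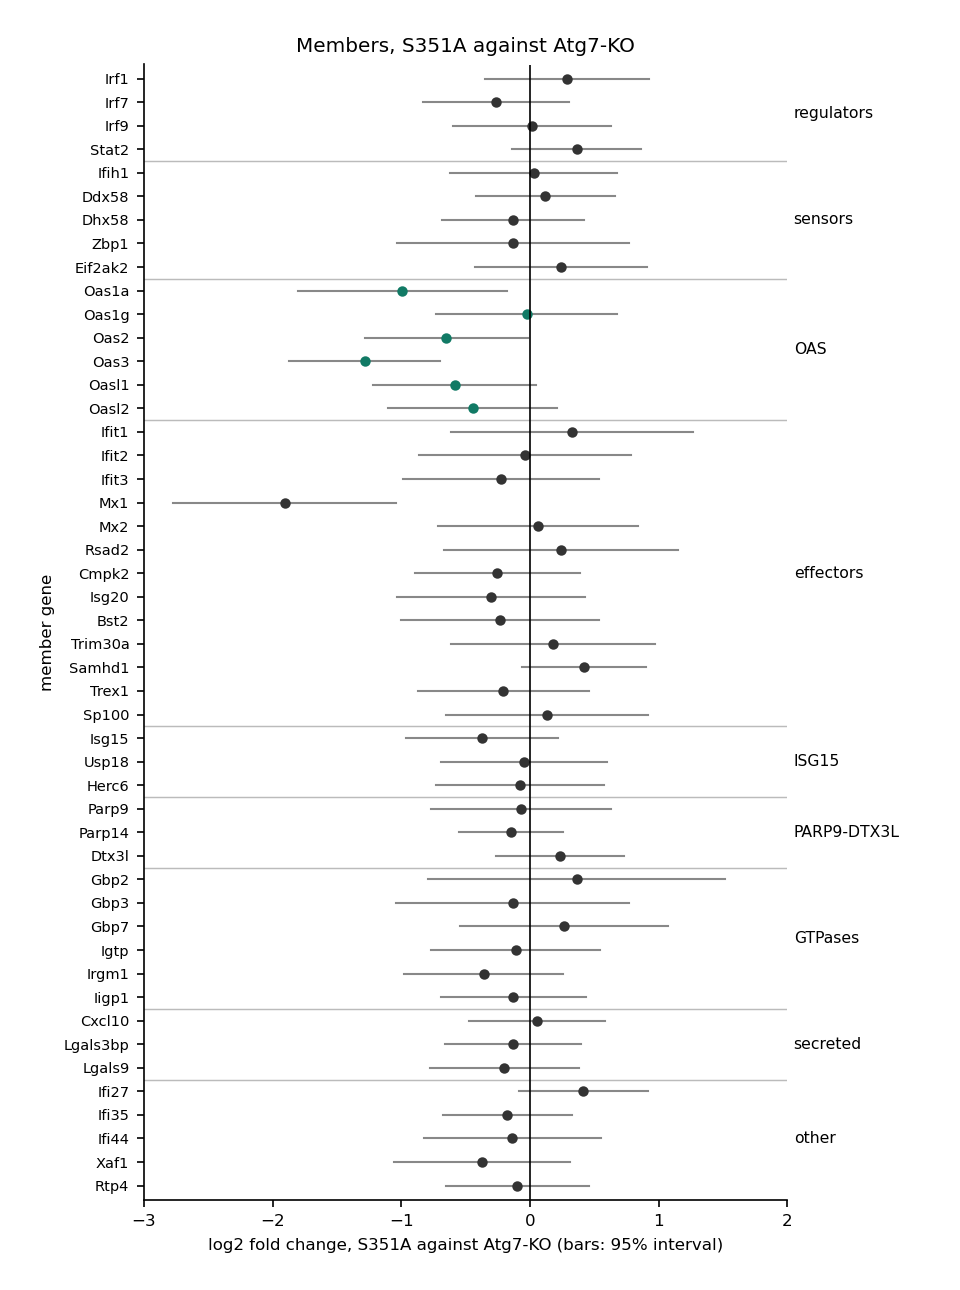
Log2 fold change of each member in S351A against Atg7-KO, with bars for the 95% interval of the difference. Negative values are lower in S351A. Green points are the OAS family, of which all 6 lie at or below 0, and Mx1 lies furthest to the left at -1.91. The intervals of 4 members exclude 0.

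The S351A libraries differed more among themselves than the Atg7-KO libraries, each of which was deeper. How much of this spread is counting error at low depth and how much lies in the livers was not tested. The coefficient of variation over replicates had a median of 30.6% for the members in S351A, 10.6% in Atg7-KO and 32.7% in cont, beside 26.2%, 13.3% and 25.9% for all genes. Relative to the cont mean, the median log2 level of the 48 members was 1.41, 2.00 and 1.75 in S351A replicates 1 to 3, and 1.84, 1.81 and 1.73 in the Atg7-KO libraries. S351A replicate 1 was the lowest of its group for 32 of the 48 members. By sex-linked genes this replicate was male and S351A replicates 2 and 3 were female, and the part of sex in this order was not tested. Of the 35 members that rose in Atg7-KO, 32 lay below the Atg7-KO mean in S351A replicate 1, 13 in replicate 2 and 20 in replicate 3. When each library was left out in turn, the number of members called higher in S351A was lowest, 28, without S351A replicate 2, where 1284 of 11772 genes were called higher.

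Transcripts of the interferons themselves were near the limit of detection. Of 12 ligand genes listed, Ifnb1, Ifna1, Ifna2, Ifna11, Ifna12, Ifne, Ifnl2 and Ifnl3 had 0 counts in each of the 9 libraries. A count of 0 allows up to 3 counts, or 0.269 to 3.73 CPM depending on the library. Ifna4 and Ifna5 had 1 count in 1 Atg7-KO library, Ifnk had at most 1 count in any library, and Ifng, the sole type II interferon, had at most 3. None could be tested. 

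The genes of the receptors and of JAK-STAT signalling, written down as a list of 16, had 15 tested members, of which 5 rose in Atg7-KO and 4 in S351A, beside 19.9% and 15.6% of all genes, and the median log2 change was 0.46 and 0.44. The type I receptor genes Ifnar1 and Ifnar2 were not called, at 0.35 and -0.09 in Atg7-KO and 0.71 and -0.11 in S351A. The type III receptor gene Ifnlr1 rose by 3.08 ± 0.49 and 3.52 ± 0.56 on counts of 2 to 4 per cont library. Its partner Il10rb rose by 2.20 ± 0.19 and 1.48 ± 0.21, and the interferon gamma receptor genes Ifngr1 and Ifngr2 by 1.41 and 1.97 in Atg7-KO and by 1.31 and 1.79 in S351A.

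The 21 adaptors, kinases and other sensors upstream of interferon included calls in both directions. Of 19 tested, 6 rose and 2 fell in Atg7-KO, where 19.9% of all genes were called higher and 18.1% lower. Tlr7, an endosomal receptor for single-stranded RNA, rose by 3.22 ± 0.52, Tmem173, which encodes STING, by 2.06 ± 0.47, Mb21d1, which encodes cGAS, by 2.04 ± 0.39, and Irf8, a factor of myeloid cells, by 2.01 ± 0.21 on the log2 scale. Mavs fell by 1.37 ± 0.35 and Irf3 by 0.84 ± 0.22. In S351A, 4 rose and 1, Mavs, fell, beside 15.6% and 13% of all genes. Of 67 other interferon-stimulated genes that were tested, 42 rose and 2 fell in Atg7-KO, with a median of 1.00, and 34 rose and 0 fell in S351A, with a median of 0.95. Ly6a rose by 5.83 ± 0.42 and 5.23 ± 0.41, Slfn8 by 3.26 and 3.01, Tgtp1 by 3.20 and 3.18, Ifi27l2a by 3.15 and 2.61 and Ly6e by 2.85 and 2.81 on the log2 scale. Gbp10 fell by 1.68 and Ifitm2 by 1.22 in Atg7-KO, and 23 of the 67 were not called there and 33 in S351A. Gbp10 was at 0.03 in S351A against cont, and its S351A libraries were all above the Atg7-KO libraries (log2 difference 1.71, not called).

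Markers of several cell types moved with the members. The shares of all genes to set beside their counts are 19.9% higher and 18.1% lower in Atg7-KO, and 15.6% higher and 13% lower in S351A. In bulk liver, fewer cells of a type and less RNA per cell cannot be told apart. Of 10 hepatocyte markers, 8 fell in each Atg7-deficient group, while Apob (0.22 and 0.30 on the log2 scale) and Hnf4a (0.38 and 0.29) were not called. The summed level of the 10 was 55334 to 112270.0 CPM in cont, 35131 to 41543 in Atg7-KO and 33586 to 47058 in S351A, so that the tissue label was met in each library. Of 15 macrophage and Kupffer cell markers, 10 rose and 1 (Timd4) fell in Atg7-KO and 8 rose in S351A, with summed levels of 269 to 430 CPM in cont, 543 to 691 in Atg7-KO and 437 to 485 in S351A. The Kupffer cell genes Clec4f and Vsig4 were not called, while Ccr2, of recruited monocytes, rose by 3.20 and 2.63. All 4 markers of leukocytes in general rose in Atg7-KO and 3 in S351A, with summed levels of 29.9 to 53.2 CPM in cont, 163 to 222 in Atg7-KO and 138 to 198 in S351A.

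Markers of plasmacytoid dendritic cells, which are strong producers of type I interferon, included Siglech, which rose from 1, 4 and 8 counts in cont to 30, 13 and 14 in Atg7-KO and 9, 14 and 2 in S351A. Of the 4 tested in that list of 6, 3 rose in Atg7-KO (Siglech, Tcf4 and Irf8) and 4 in S351A, where Ccr9 was added on 4, 12 and 4 counts. Tcf4 was already at 95.5 CPM in cont, and Irf8 was named above as a factor of myeloid cells, so neither stands for this cell type alone. Cox6a2 was at 0 in 8 of 9 libraries. The list's summed level, most of it Tcf4, was 73.6 to 130.3 CPM in cont, 211 to 279 in Atg7-KO and 174 to 299 in S351A. For lymphocytes, 2 of 13 markers could be tested, and Cd8a was called higher in both groups on few counts: 0, 3 and 2 in cont, 40, 14 and 15 in Atg7-KO and 12, 2 and 3 in S351A. The summed lymphocyte level was 9.77 to 21.1 CPM in cont, 27.3 to 38.4 in Atg7-KO and 24.8 to 32.2 in S351A, and Gzma and Prf1 were at 0 to 2 counts. All 5 tested ductular markers rose in both groups, and of 8 sinusoidal endothelial markers 1 rose in each, while 3 fell in Atg7-KO and 1 in S351A, shares that in S351A are near or below those of all genes. The part of these cell types in the rise of the members was not tested.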

How the data were processed

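Livers were compared as 9 libraries in 3 groups, with groups and replicate numbers taken from the sample titles. The deposited values are expected counts per gene, which the authors estimated with RSEM after Trim Galore and STAR alignment to mm10, with no scaling between libraries. Annotation, strand setting and versions are not given in the sources used here. Values were rounded to whole numbers. The authors called genes with DESeq2.

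Here edgeR 4.0.16 in R 4.3.3 was used. The function filterByExpr (minimum count 10, minimum total 15) kept 11199 of 24411 genes, libraries were scaled by TMM, and 1 quasi-likelihood model (glmQLFit, glmQLFTest) was fitted to all 9 libraries. Calls needed a Benjamini-Hochberg adjusted p under 0.05 over all genes and a fold above 1.5. SE is the log2 fold change over the root of F. The floor of 3 counts covers counting error only, as amplified reads carried no molecular identifiers. The 95% intervals come from the model. The method was tested on simulated data.

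The members, the lists of other genes, the markers and the tests were chosen with earlier results of these data known. Values in every library are given for regulators, sensors, the 8 called members with the largest change against cont and the 5 with the smallest p in S351A against Atg7-KO, and others by means and counts, except Isg15, Parp14, Iigp1 and Ifi27, whose library values were added after they were seen. Genes outside the list are named where they are ligands or receptors, or among the largest called changes of their list, and other names were added after the values were seen. The values of 1 gene that this rule names are not reported here. Sample titles number the mice within each genotype, which is the one statement in the labels that replicates are separate animals. Deviations of same-numbered S351A and cont libraries from their group means correlated across genes, at r = 0.24, 0.17 and 0.18, so these numbers were treated as pairs in an alternative with replicate number as a block, although the labels name no shared litter or batch. For Atg7-KO and cont the values were 0.25, 0.09 and -0.07, and for S351A and Atg7-KO 0.30, 0.07 and 0.10. By sex-linked genes, replicate 1 was male and replicate 2 female in every group. Replicate 3 was male in cont and female in Atg7-KO and S351A. Replicate number and sex therefore cannot be fully told apart in these correlations or in the block. Promoters came from RefSeq and gene positions from GENCODE M21, both on GRCm38. Alternatives were RLE and total-count scaling, DESeq2 1.42.0, limma-voom (limma 3.58.1), other filters, the 6 libraries compared, sex as a covariate, thinning to equal depth and leaving out each library.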

Additional observations from a re-analysis of the deposited data

How the results depend on the processing

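Members called higher numbered 35 in Atg7-KO against cont and 36 in S351A against cont. Leaving out each library in turn gave 33 to 36 and 28 to 36, and S351A against Atg7-KO kept 0 calls in each direction. Thinning each library to the smallest total gave 23 and 13 calls among 47 members tested, where 558 and 358 of 8945 genes were called higher. With the replicate block, 37 members were called higher in S351A, and Dtx3l was the one call that changed in that comparison. No member was called lower against cont in any setting. In S351A against Atg7-KO, DESeq2 called 1 member lower (17 of 11199 genes) and edgeR without a filter called 2 (37 of 19081 genes), where the cause was not tested.

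The median log2 fold change of the members ranged from 1.64 to 1.88, from 1.39 to 1.84 and from -0.24 to 0.10 in the 3 comparisons when each library was left out, and the last of these turned positive without S351A replicate 1. Total library size moved the median of all genes to 0.52 and 0.47 against cont and that of the members to 2.31 and 2.13, while the difference between members and all genes was 1.79 and 1.66, as under TMM. Under that scaling Irf9 and Stat2 were called higher in both groups and Irf1 changed sign, to 0.12 and 0.36. Requiring 10 counts in every library left 36 members with a median of 1.39 in Atg7-KO, as 12 members with a library under that count were removed, and thinning gave 2.07. Near-zero values also changed sign when single libraries were left out, for Stat2 in Atg7-KO (-0.018 without cont replicate 3, up to 0.21) and for Irf1 in S351A (0.034 without cont replicate 3 and 0.12 without S351A replicate 1, down to -0.59). The S351A libraries are the shallowest, and what depth contributes to their calls cannot be told apart from the p62 mutation.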
